A study of Mus musculus with 20 samples.

Results

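The genes described are 10 of the 31618 in the deposited expression table, chosen by symbol for their place in myostatin and activin signalling. They are the ligand gene Mstn, the follistatin family genes Fst, Fstl1 and Fstl3, the receptor genes Acvr1b, Acvr2a and Acvr2b, and the intracellular genes Smad2, Smad3 and Smad7. Each symbol matched 1 row. With a filter at a mean FPKM (fragment counts scaled by transcript length and library depth) of at least 1 over 20 libraries, 6 of the 10 were tested among 9696 genes. Fst, Fstl3, Acvr2b and Smad7 lay under it, and their differences come from a second fit of all 31618 genes.

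Myostatin is a secreted growth factor of the TGF-beta superfamily, made mainly by skeletal muscle, and its loss gives enlarged muscles in mice and cattle. Like activin, it binds a type II receptor (ACVR2A or ACVR2B), which activates a type I receptor such as ACVR1B, which in turn phosphorylates SMAD2 and SMAD3. Follistatin and FSTL3 bind the ligands outside the cell, and SMAD7 blocks the type I receptor from inside it. The transcripts measured here say nothing of ligand processing, receptor activation or SMAD phosphorylation, through which the pathway acts.

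RNA was sequenced from the gastrocnemius, a calf muscle, of male C57BL/6N mice in 4 groups of 5 libraries. The groups were controls with no compound named on their labels (Control), mice given tetrathiomolybdate (TM), a copper chelator, mice given N-acetylcysteine (NAC), a thiol antioxidant, and mice given both (TM+NAC). Treatment lasted 28 days per the labels, which give no genetic modification, age, dose or route. Whether every library came from its own animal is not said on the labels, and the tests therefore rest on library-to-library spread, part of which may be technical.

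Levels between groups are given in TMM-scaled CPM (counts per M, with M standing for 1e6 and library sizes adjusted by edgeR's TMM method), as mean ± SD with n = 5 libraries. Totals ran from 54.7 to 90.7 M counts, with a median of 63.3 M. CPM was taken over each library's counts of genes past the filter times its TMM factor. The counts behind 1 CPM therefore do not follow from the total alone. Differences are log2 folds ± SE from edgeR's quasi-likelihood test, with Benjamini-Hochberg adjustment over all genes of the fit. The 95% intervals are for the fold itself, reckoned from the spread between libraries, and do not span the single libraries. A gene passed at an adjusted p under 0.05. The interaction is the fold that TM gave in the presence of NAC less the fold it gave alone.

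The sequences just upstream of Mstn and Acvr2a are shown because these transcripts shared their highest library, the 4th NAC library, while their upstream sequences differ in make-up. Both stretches are the 250 bases before the gene's start in RefSeq (GRCm38.p6), written 5′ to 3′ on the plus strand. Capitals mark matches to an E-box (CANNTG, the letters bound by myogenic factors such as MyoD), to CAGAC or its reverse complement GTCTG (letters that hold a SMAD-binding element), and to TATAAA or its reverse complement TTTATA.
Mstn, chr1:53061390-53061639: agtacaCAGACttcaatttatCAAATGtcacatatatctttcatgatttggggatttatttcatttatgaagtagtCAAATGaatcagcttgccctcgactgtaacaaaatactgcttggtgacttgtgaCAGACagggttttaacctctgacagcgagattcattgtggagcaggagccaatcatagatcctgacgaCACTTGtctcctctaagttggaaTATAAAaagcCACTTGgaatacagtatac
Acvr2a, chr2:48813859-48814108: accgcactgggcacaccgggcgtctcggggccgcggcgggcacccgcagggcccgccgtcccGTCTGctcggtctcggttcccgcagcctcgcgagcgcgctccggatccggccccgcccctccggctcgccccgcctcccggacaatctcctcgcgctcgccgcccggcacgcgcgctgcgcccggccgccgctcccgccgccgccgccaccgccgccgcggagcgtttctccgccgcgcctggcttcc
The Mstn stretch held 4 E-boxes, beginning 229, 174, 52 and 19 bases before the start, 2 CAGAC matches at 244 and 120 bases, and TATAAA at 29 bases. None of these matches overlapped another. The Acvr2a stretch held a single GTCTG at 188 bases and neither of the other motifs, and its G+C content was 82% against 38.4% for Mstn. An E-box stood in 66.2% of 32851 upstream stretches of the same length, a CAGAC match in 42.2% and a TATAAA match in 12.4%, both strands searched. Sequence was matched for 7 of the 10 genes by symbol, and Fst, Smad2 and Smad7 were not among them. Smad2 also had its highest level in the 4th NAC library. The Fstl3 stretch held 3 E-boxes, 2 CAGAC matches and 1 TATAAA match, both strands searched, although Fstl3 was low in that library. The motif set of Mstn was therefore not particular to it, and a link of motifs to levels was not tested. A match describes letters and is not a measured binding site.

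Mstn was the most abundant of the 10 transcripts per length, with a mean FPKM of 25.1 over 20 libraries (range 17.7 to 42.1). Smad3 followed at 16.5, then Acvr1b at 8.52, Fstl1 at 7.22 and Acvr2a at 5.93. The other 5 were low: Smad2 at 1.29, Smad7 at 0.851, Acvr2b at 0.845, Fst at 0.650 and Fstl3 at 0.379. Between neighbours in this order, the ranges over libraries were separate for Smad3 above Acvr1b and for Acvr2a above Smad2, and they overlapped for the other 7 neighbouring pairs. Within a library Mstn exceeded Smad3 in 20 of 20, whereas Smad7 exceeded Acvr2b in 10 of 20.

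The receptor and transducer pairs were unequal. Acvr2a, which encodes one of the activin type II receptors, stood at 5.93 FPKM against 0.845 for Acvr2b, which encodes the type II receptor bound most tightly by myostatin. Smad3 stood at 16.5 FPKM against 1.29 for Smad2. Among the other pathway genes, Smad4, which encodes the partner that SMAD2 and SMAD3 share, had a mean FPKM of 8.86, and Tgfb3 was the most abundant other ligand transcript at 7.33. The transcripts of the activin chains were low, with Inhba at 0.111 and Inhbb at 0.213 FPKM. Acvr1c, which encodes a further activin type I receptor, stood at 0.0871 FPKM.

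**Figure D1:**
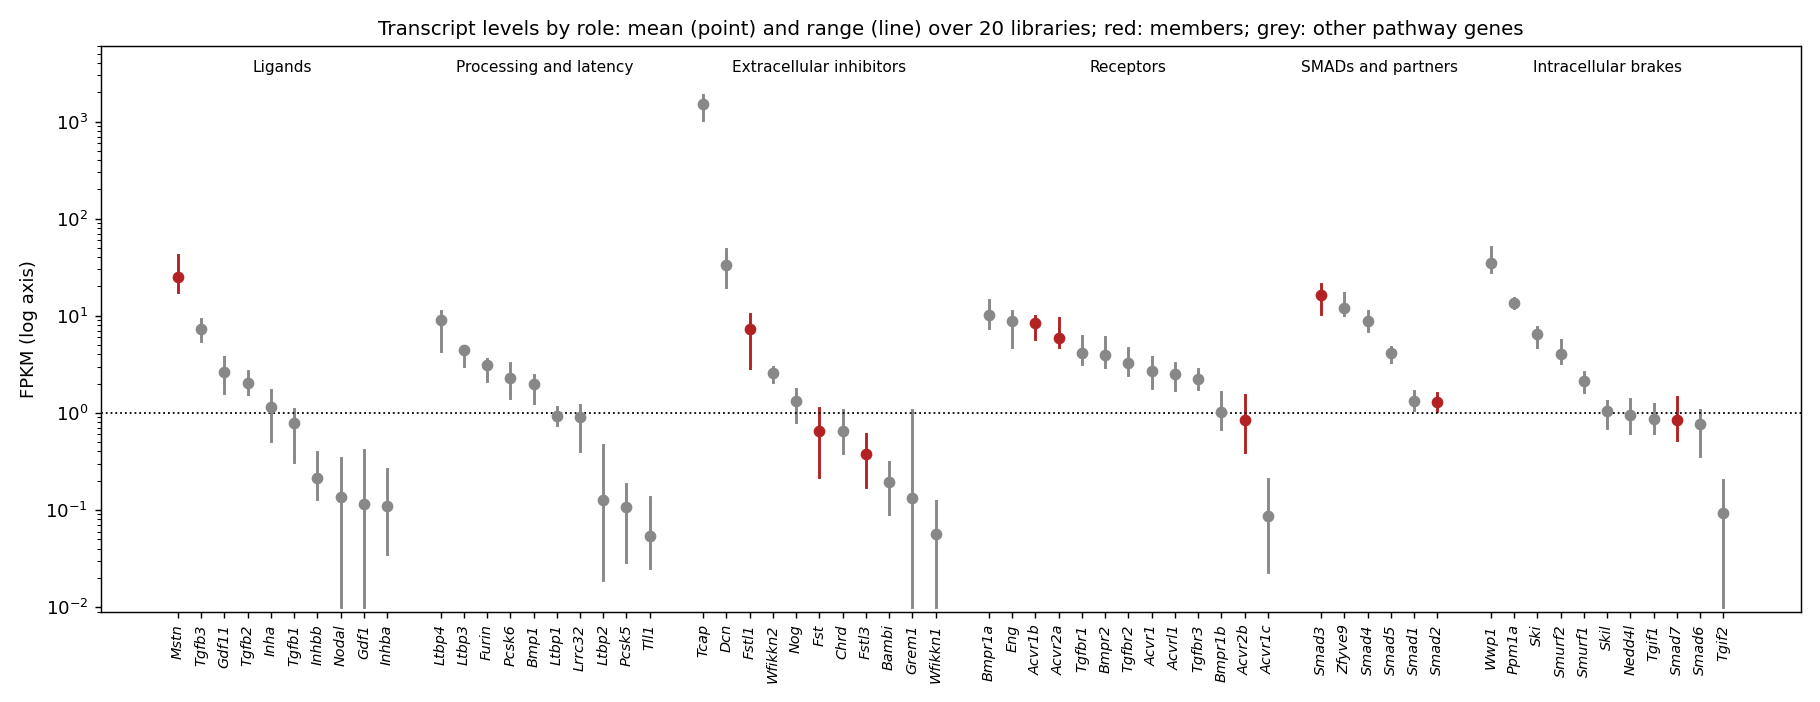
Mean FPKM (point, log axis) and range over 20 libraries (line) for the 10 members (red) and other listed pathway genes (grey), by role, without the transcriptional targets, genes under a mean of 0.05 FPKM and the parts of lines under 0.01. The dotted line is the filter at 1 FPKM; Mstn at 25.1 and Smad3 at 16.5 lead their roles, and Fst, Fstl3, Acvr2b and Smad7 lie under the line.

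Defining fast fibre transcripts were abundant in every library, with a summed level of 113541 to 165777 CPM over 7 markers. The NAC 4 library stood apart from the rest, with the largest total (90.7 M counts) and the highest share of mitochondrial counts (20.3%, against 13.1 to 18.9% elsewhere). Control 4 had the lowest summed level of 6 fibroblast markers (286 CPM, against 378 to 674 elsewhere). The summed level of 11 neuron markers, leaving out Camk2a, which muscle also expresses, ran from 7.86 to 13.1 CPM for Control. For TM+NAC it ran from 83.3 to 110 CPM. In TM it was 11.7 CPM in TM 1 and 57.9 to 70.4 CPM in the other libraries. In NAC it was 10.6 CPM in NAC 4 and 90.5 to 106 CPM in the other libraries. The summed level of 6 inflamed stroma markers was 16.4 to 50.4 CPM in the TM+NAC libraries and 4.55 CPM or lower in all others, and 5 cartilage markers summed to 19.2 to 29.0 CPM there, with no library of another group above 12.6 CPM. The part of these signals in the differences between groups was not tested.

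No member passed in any comparison. Of the 6 tested members, 0 passed between TM and Control, where 0% of the 9696 tested genes passed, and 1 had an unadjusted p under 0.05, against 3.37% of all genes. Between NAC and Control 0 passed against 0.217% of all genes, and 0 had an unadjusted p under 0.05 against 7.44%. For TM+NAC against Control 0 passed, beside 0.351%, and 0 had an unadjusted p under 0.05 against 6.38%. For TM+NAC against TM 0 passed, beside 0.0309%, and 1 had an unadjusted p under 0.05 against 5.19%. Between TM+NAC and NAC 0 passed against 0.0309%, and 2 had an unadjusted p under 0.05 against 11.9%. In the interaction 0 passed against 0.0103%, and 2 had an unadjusted p under 0.05 against 7.28%. In the test of any difference among the 4 groups 0 passed against 0.196%, and 1 had an unadjusted p under 0.05 against 6.42%. DESeq2 and limma on log2(FPKM + 1) also passed 0 of the 6 in each of these tests.

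In the fit without a filter, 0 of the 4 low members passed in any of the comparisons. The share of all 31618 genes passing there was 0.623% for TM against Control, 1.39% for NAC against Control, 1.79% for TM+NAC against Control, 0.0664% for TM+NAC against TM and 0.0411% for TM+NAC against NAC. It was 0.0221% for the interaction and 0.936% for the 4-group test. Among the 4 low members, an unadjusted p under 0.05 was reached by 1 between TM+NAC and Control (10% of all genes), 1 between TM+NAC and TM (6.65%) and 1 between TM+NAC and NAC (8.25%), and by 0 in the other tests (7.38% for TM against Control, 9.68% for NAC against Control, 9.01% for the interaction and 9.09% for the 4-group test).

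Between NAC and Control all 6 tested members had folds above 0, with a median log2 fold of 0.22 beside 0.00 over all tested genes, while Acvr2b, under the filter, had a fold of -0.45 ± 0.26. These folds share 1 set of control libraries, and without NAC 4 those of Mstn, Acvr2a and Smad2 went from 0.35 to 0.18, from 0.20 to 0.02 and from 0.13 to 0.05. In the interaction 5 of the 6 folds were below 0, with a median of -0.30 beside 0.00. Without NAC 4 those of Mstn, Acvr2a and Smad2 went from -0.43 to -0.26, from -0.42 to -0.24 and from -0.15 to -0.07. Between TM+NAC and NAC 5 of 6 were below 0, with a median of -0.14 beside 0.00. These folds, the interaction and the folds of NAC over Control use the same 5 NAC libraries, so their directions are not separate results. On simulated counts for TM against Control, 50 genes were changed at each of 1.3-, 1.5-, 2- and 4-fold among 9696. There the test found 28% of genes changed 1.3-fold, 60% of those changed 1.5-fold and 86% of those changed 2-fold, with 4 false calls. Changes of the size seen in these members could thus go uncalled. In the real comparison 0 genes passed, and adjusted p depends on how many genes change, so these shares may be too high for it. The changed genes were drawn at random from the tested genes, whose median SE was 0.12 for TM against Control. The SE of the 6 tested members ran from 0.11 to 0.20 over the 5 comparisons of a pair of groups. The shares therefore need not hold for each of them. The 4 members under the filter were not covered.

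**Figure D2:**
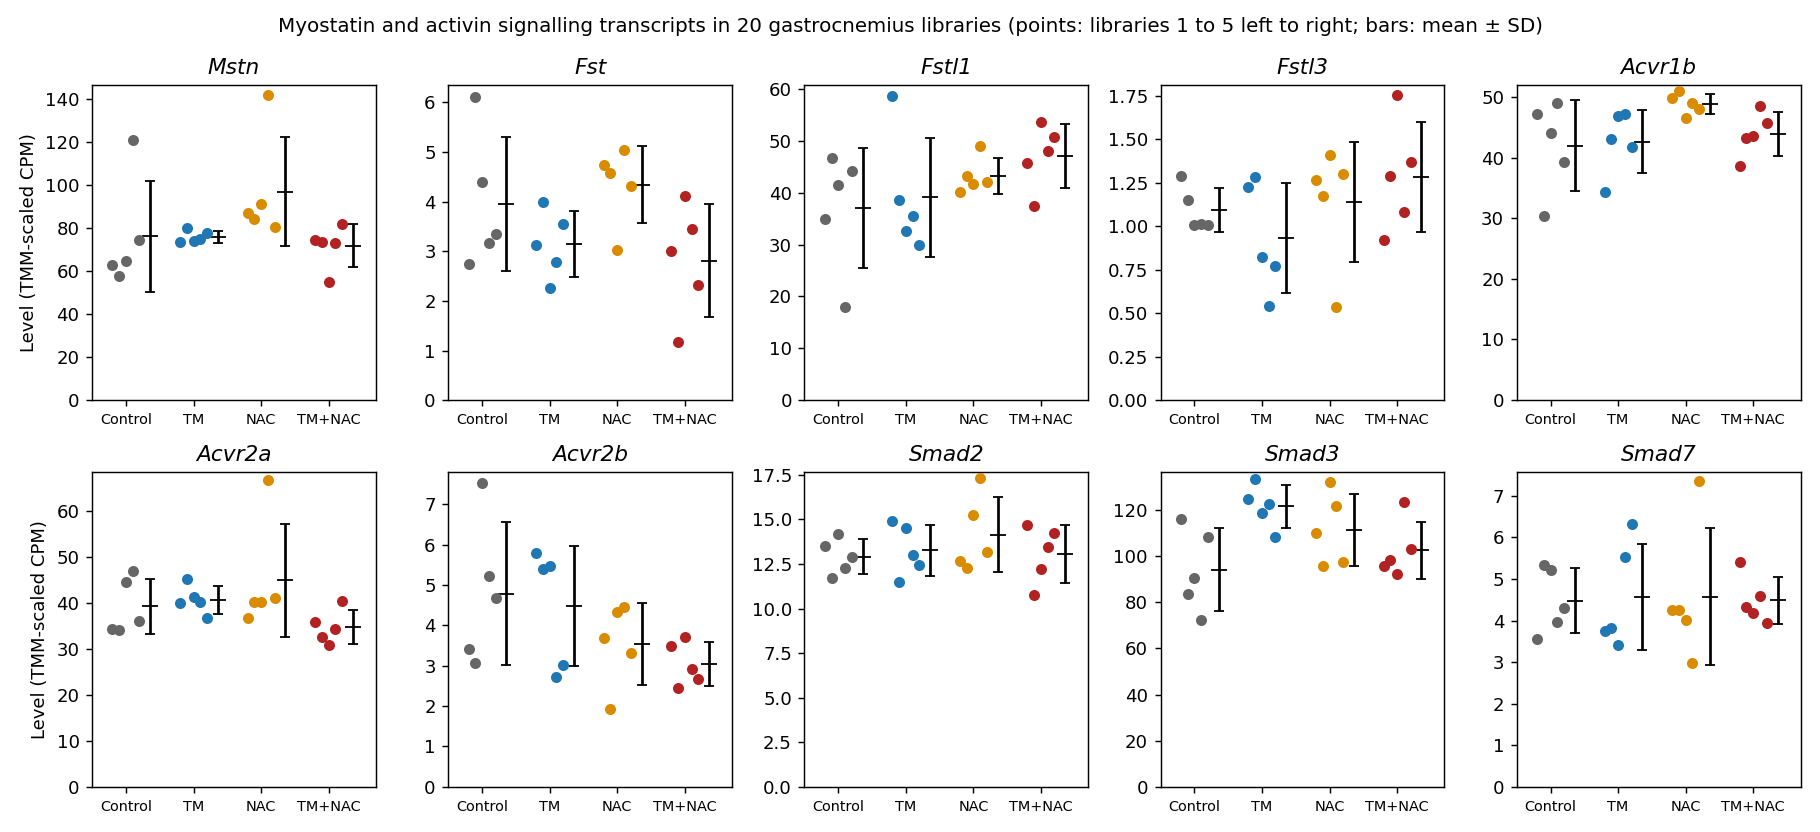
Level of each member (CPM, axis from 0) in libraries 1 to 5 of each group, left to right, with the group mean and SD as bars. Mstn and Acvr2a share their highest library (NAC 4, at 142 and 66.7 CPM), and Smad3 in TM lies between 108 and 134 CPM while Control runs from 72.5 to 116 CPM.

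Mstn encodes the ligand. Its levels in Control libraries 1 to 5 were 62.8, 57.9, 65.0, 121 and 74.7 CPM. In TM they were 73.8, 80.2, 73.9, 74.9 and 77.8 CPM, all inside the control range and close together, with a coefficient of variation of 3.68% against 33.7% in Control, or 10.9% in Control without Control 4. In NAC they were 87.1, 84.2, 91.2, 142 and 80.7 CPM, each above 4 of the 5 control libraries. In TM+NAC they were 74.8, 73.8, 55.0, 73.3 and 82.1 CPM. The 2 highest libraries of the study for Mstn were thus NAC 4 and Control 4, and its ranges overlapped in each of the 5 comparisons of a pair of groups. Between NAC and TM, a pair with no test here, the ranges were separate for Mstn, as they were for 0.66% of tested genes. The gap was narrow, with NAC 5 at 80.7 CPM and TM 2 at 80.2 CPM. For every other member the NAC and TM ranges overlapped.

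The mean Mstn level was 76.1 ± 2.80 CPM in TM and 76.2 ± 25.7 CPM in Control, and the interval of the log2 difference ran from -0.37 to 0.36. Mean Mstn was 97.1 ± 25.5 CPM in NAC, a log2 fold of 0.35 ± 0.17 over Control (unadjusted p = 0.0589, adjusted p = 0.638 by edgeR). Both libraries that stand apart bear on this value: the fold was 0.18 without NAC 4 and 0.58 without Control 4. With Control 4 and NAC 4 both left out, its adjusted p of 0.127 was the lowest of any of the 6 tested members in any alternative. Between TM+NAC and NAC the fold was -0.44 ± 0.17 (unadjusted p = 0.0211, adjusted p = 0.409 by edgeR), with 5 of 5 TM+NAC libraries below the NAC mean, and it was -0.26 without NAC 4. Against Control, TM+NAC stood at 71.8 ± 10.05 CPM, a fold of -0.09 ± 0.17 that became 0.15 without Control 4, and the fold of TM over Control became 0.23 without that library.

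Fst encodes follistatin, the secreted antagonist of activin and myostatin. Its Control libraries held 2.74, 6.11, 4.41, 3.17 and 3.34 CPM, and its TM libraries 3.14, 3.99, 2.25, 2.79 and 3.54 CPM. Its NAC libraries held 4.73, 4.59, 3.03, 5.04 and 4.31 CPM, and its TM+NAC libraries 3.02, 1.16, 4.12, 3.44 and 2.33 CPM. The highest library was Control 2 and the lowest TM+NAC 2, and NAC overlapped TM+NAC through a single low NAC library. Between TM+NAC and NAC the log2 fold was -0.62 ± 0.27 (2.81 ± 1.13 against 4.34 ± 0.779 CPM, unadjusted p = 0.0289, adjusted p = 0.494 by edgeR without a filter). Without TM+NAC 2 that fold was -0.43. The exons of Fst overlap those of Gm47040, an antisense gene, and it is not given whether the counting used strand, so its reads and those of Gm47040 may not be separated.

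Fstl1 encodes a secreted glycoprotein that shares a follistatin-like domain. Its levels were 35.0, 46.8, 41.5, 17.9 and 44.2 CPM in Control and 58.8, 38.6, 32.6, 35.6 and 29.9 CPM in TM. They were 40.1, 43.3, 41.8, 49.0 and 42.2 CPM in NAC and 45.7, 37.4, 53.6, 48.1 and 50.7 CPM in TM+NAC. Control 4 was the lowest library and TM 1 the highest. The largest of its folds was 0.35 ± 0.20 for TM+NAC over Control (47.1 ± 6.18 against 37.1 ± 11.6 CPM, unadjusted p = 0.0969, adjusted p = 0.912 by edgeR), with 5 of 5 libraries above the control mean, and it was 0.17 without Control 4.

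Fstl1 tracked the fibroblast markers across libraries. The 6 markers (Pdgfra, Dcn, Col1a1, Col3a1, Lum and Dpt) summed to 286 CPM in Control 4 and 378 CPM in TM 5, where Fstl1 was lowest and next lowest, and to 674 CPM in TM 1, where it was highest. Over the 20 libraries Pearson's r was 0.94 and Spearman's rho 0.88, and r was 0.87 without Control 4 and TM 5, the farthest from the median marker sum. Both values of a point come from the same library and scaling, and the relation was chosen after its values were seen, so it is given as a description. Fstl1 per 100 CPM of fibroblast markers was 7.21 ± 0.683 for Control, 7.82 ± 0.680 for TM, 7.38 ± 0.392 for NAC and 8.12 ± 0.512 for TM+NAC (SD, n = 5). For the other 9 members r with the same sum lay between -0.21 (Mstn) and 0.38 (Fstl3). In bulk muscle, fewer fibroblasts and less RNA per fibroblast cannot be told apart.

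**Figure D3:**
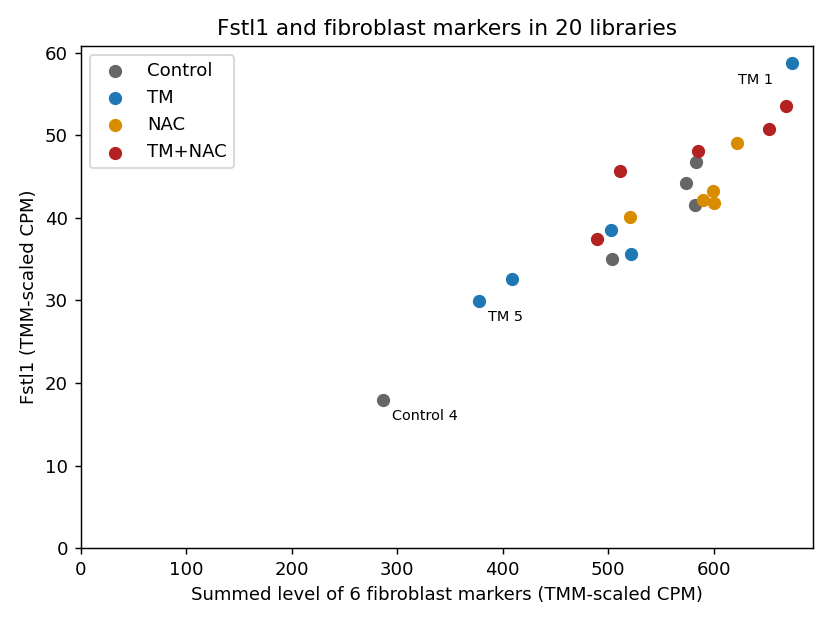
Fstl1 (CPM) against the summed level of 6 fibroblast markers (CPM) in 20 libraries, coloured by group, both axes from 0. Control 4 (17.9 against 286) and TM 1 (58.8 against 674) are the ends of the band.

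Fstl3 encodes a follistatin-like protein that binds activin and myostatin in blood. It was the lowest member, with 34 to 113 counts per library. Its levels were 1.29, 1.15, 1.004, 1.01 and 1.005 CPM in Control and 1.23, 1.28, 0.820, 0.543 and 0.773 CPM in TM. They were 1.26, 1.17, 1.41, 0.538 and 1.302 CPM in NAC and 0.922, 1.29, 1.75, 1.08 and 1.37 CPM in TM+NAC. The lowest libraries for Fstl3 were NAC 4 (0.538 CPM, 42 counts) and TM 4 (0.543 CPM, 34 counts), nearly level with each other. NAC 4 was the highest library for Mstn, while TM 4 lay inside the control range for Mstn. No unadjusted p was under 0.05, and the largest fold was 0.46 ± 0.27 for TM+NAC over TM (unadjusted p = 0.110, adjusted p = 0.604 by edgeR without a filter). Its exons overlap those of Prss57 on the other strand.

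Acvr1b encodes ALK4, a type I receptor for activin and for myostatin. Its levels were 47.2, 30.3, 44.0, 49.0 and 39.4 CPM in Control and 34.4, 43.1, 46.9, 47.2 and 41.7 CPM in TM. They were 49.8, 51.0, 46.6, 49.1 and 48.0 CPM in NAC and 38.6, 43.2, 43.5, 48.6 and 45.7 CPM in TM+NAC. NAC was the tightest group, with a coefficient of variation of 3.45%, and its 5 libraries lay above the control mean, although the ranges overlapped. The fold of NAC over Control was 0.22 ± 0.11 (48.9 ± 1.68 against 42.0 ± 7.49 CPM, unadjusted p = 0.0554, adjusted p = 0.638 by edgeR), and without Control 2 it was 0.12.

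Acvr2a encodes an activin type II receptor. Its levels were 34.3, 34.1, 44.5, 46.9 and 36.1 CPM in Control and 39.996, 45.1, 41.3, 40.1 and 36.8 CPM in TM. They were 36.8, 40.1, 40.1, 66.7 and 40.9 CPM in NAC and 35.8, 32.5, 30.8, 34.2 and 40.4 CPM in TM+NAC. NAC 4 stood far above the other NAC libraries, and all 5 TM+NAC libraries lay below the means of NAC and of TM. Between TM+NAC and NAC the fold was -0.37 ± 0.14 (34.8 ± 3.67 against 44.9 ± 12.3 CPM, unadjusted p = 0.0134, adjusted p = 0.409 by edgeR). Without NAC 4 it was -0.18, and the fold of NAC over Control, 0.20 ± 0.14 with all libraries, was 0.02. The interaction was -0.42 ± 0.19 (unadjusted p = 0.0402, adjusted p = 0.597 by edgeR), and -0.24 without NAC 4. Acvr2a shares exon sequence with Orc4 on the other strand.

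Acvr2b, the other type II receptor gene, held 3.43, 3.08, 7.52, 5.23 and 4.67 CPM in Control and 5.79, 5.41, 5.47, 2.71 and 3.03 CPM in TM. It held 3.69, 1.93, 4.33, 4.44 and 3.30 CPM in NAC and 3.48, 2.44, 3.703, 2.92 and 2.67 CPM in TM+NAC. All 5 NAC libraries and all 5 TM+NAC libraries lay below the control mean, although the ranges overlapped. The fold of TM+NAC over Control was -0.67 ± 0.26 (3.04 ± 0.536 against 4.79 ± 1.77 CPM, unadjusted p = 0.0188, adjusted p = 0.369 by edgeR without a filter), and -0.45 without Control 3. That of TM+NAC over TM was -0.56 ± 0.26 (unadjusted p = 0.0430, adjusted p = 0.598 by edgeR without a filter). NAC alone stood at -0.45 ± 0.26 against Control (unadjusted p = 0.0996, adjusted p = 0.489 by edgeR without a filter), and TM+NAC at -0.22 ± 0.26 against NAC. TM+NAC is also the group with the highest inflamed stroma and cartilage sums, whose part in these differences was not tested.

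Smad2 encodes one of the signal transducers and had the smallest ratio of highest to lowest library, from 10.7 to 17.3 CPM. Its group means were 12.9 ± 0.977 CPM for Control, 13.3 ± 1.44 for TM, 14.1 ± 2.12 for NAC and 13.1 ± 1.61 for TM+NAC. The highest library was again NAC 4. Between the groups compared its folds lay from -0.11 (TM+NAC over NAC) to 0.13 (NAC over Control), and without NAC 4 these were -0.03 and 0.05. The interval of TM against Control, -0.19 to 0.26 on the log2 scale, reached 1.20-fold upward.

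Smad3 encodes the other transducer. Its levels were 116, 83.8, 90.3, 72.5 and 108 CPM in Control and 125, 134, 119, 123 and 108 CPM in TM. They were 110, 95.7, 132, 122 and 97.4 CPM in NAC and 95.5, 98.3, 92.1, 123 and 103 CPM in TM+NAC. The TM libraries all lay above the control mean while 2 control libraries reached into the TM range. The fold of TM over Control was 0.37 ± 0.12, 29.1% higher (122 ± 9.28 against 94.2 ± 17.8 CPM, unadjusted p = 0.00536, adjusted p = 0.999 by edgeR), with 5 of 5 libraries above the control mean. Leaving out single libraries moved it between 0.29 and 0.46, and its adjusted p was at least 0.351 in each.

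With NAC present, the same addition of TM gave a Smad3 fold of -0.12 ± 0.12 over NAC alone (102 ± 12.3 against 111 ± 15.7 CPM), which ran from -0.20 without TM+NAC 4 to -0.05 without NAC 3. NAC alone stood 0.24 ± 0.12 above Control, with 5 of 5 libraries above the control mean (unadjusted p = 0.0529, adjusted p = 0.638 by edgeR). The interaction was -0.49 ± 0.17 (unadjusted p = 0.00817, adjusted p = 0.597 by edgeR), and it stayed between -0.58 and -0.41 when single libraries were left out. TM+NAC stood 0.25 ± 0.12 below TM on the log2 scale (unadjusted p = 0.0496, adjusted p = 0.939 by edgeR), with 4 of 5 libraries below the TM mean. In the 4-group test Smad3 had an unadjusted p of 0.0313 and an adjusted p of 0.738 by edgeR. None of these Smad3 values passed.

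Smad7 encodes the inhibitory SMAD, itself a known target of the pathway. Its group means were nearly level, at 4.48 ± 0.777 CPM for Control, 4.57 ± 1.28 for TM, 4.57 ± 1.64 for NAC and 4.49 ± 0.566 for TM+NAC. Single libraries ranged more widely, from 2.98 CPM in NAC 4 to 7.36 CPM in NAC 5. Its folds between groups lay from -0.03 to 0.02 with SE of 0.21, and the interval of TM+NAC against Control, from -0.45 to 0.42 on the log2 scale, allowed changes of up to 1.34-fold upward.

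**Figure D4:**
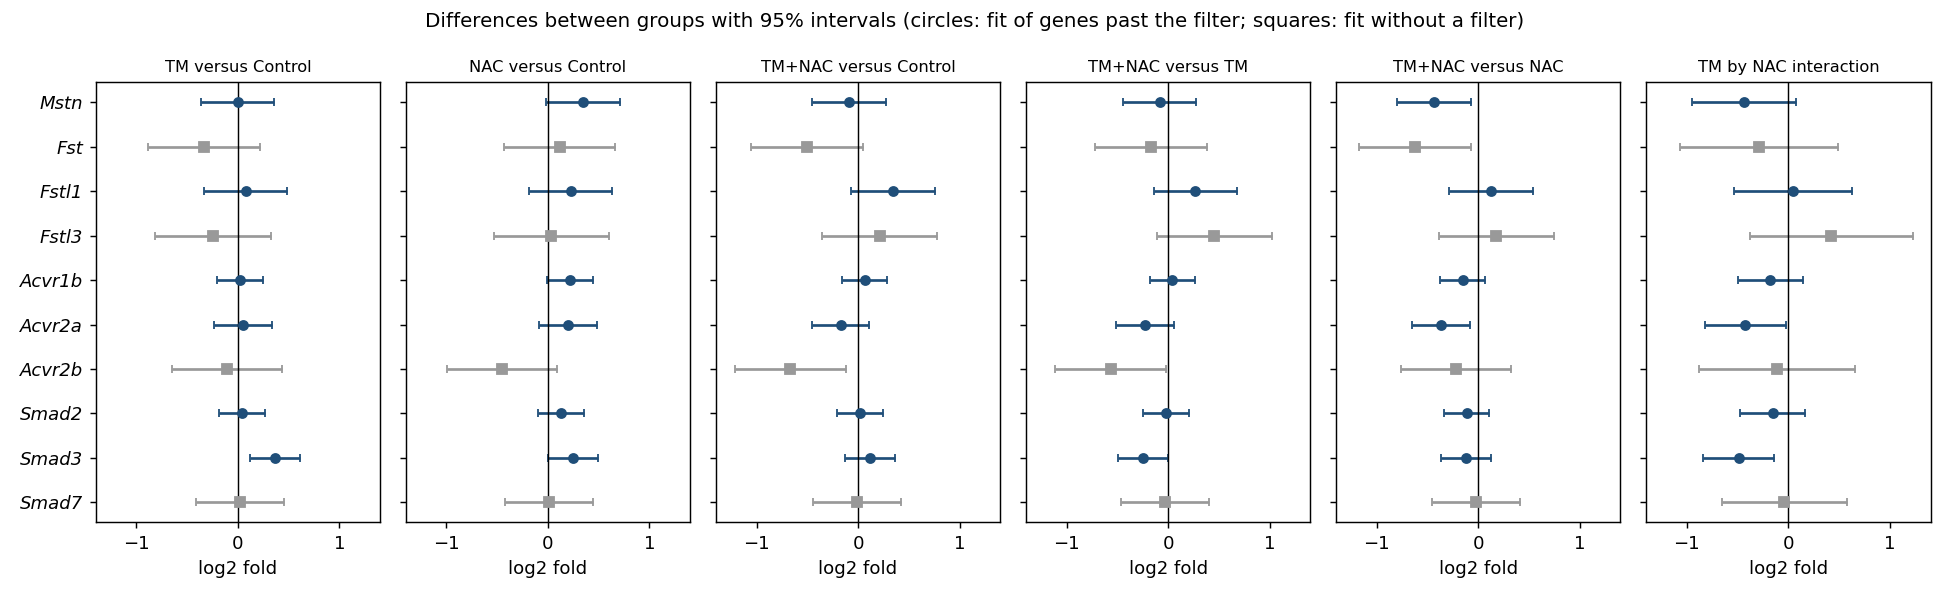
Log2 fold of each member in 5 comparisons and the interaction, with 95% intervals; circles are from the fit of filtered genes, squares from the fit without a filter. The Smad3 interval for TM against Control (0.12 to 0.61) lies above 0 and its interaction (-0.84 to -0.14) below 0, before adjustment over all genes.

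**Figure D5:**
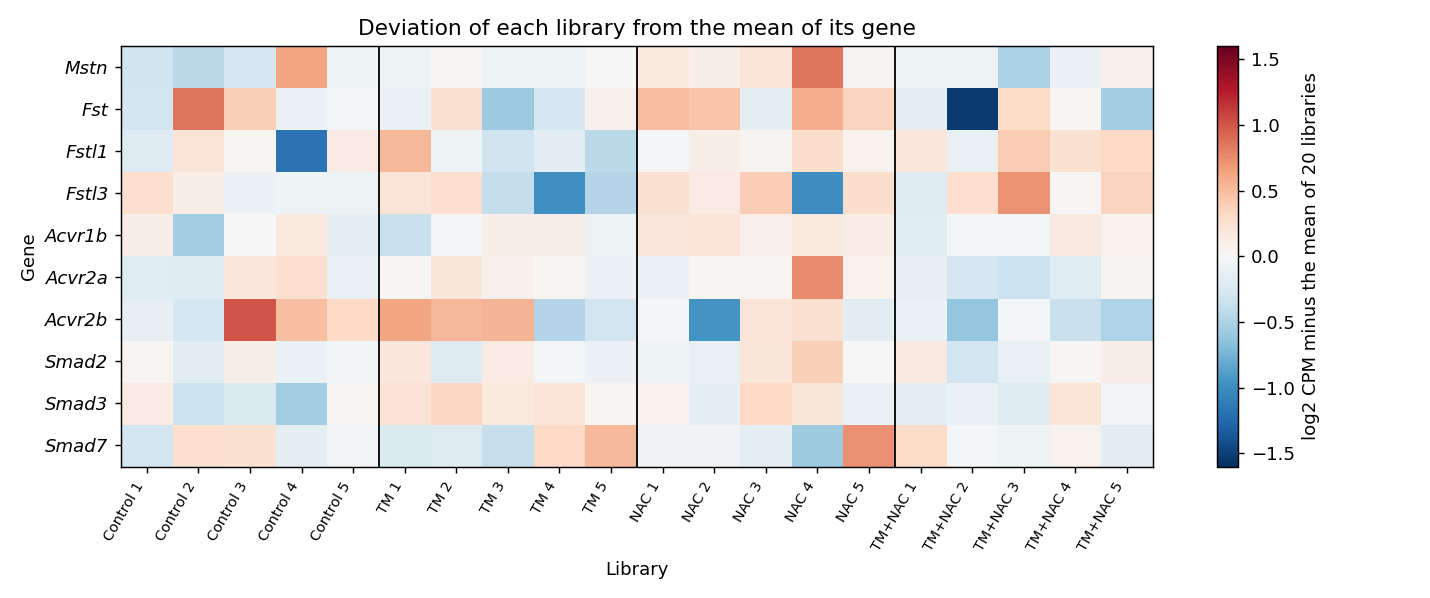
Log2 CPM of each member in each library minus its mean over 20 libraries, with lines between the groups. NAC 4 is high for Mstn and Acvr2a and low for Fstl3 and Smad7, Control 4 is high for Mstn and low for Fstl1 and Smad3, and TM+NAC 2 is lowest for Fst at 1.16 CPM.

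A list of 68 other genes of the pathway held 67 genes present in the table (Gdf3 was not analysed here), of which 40 were tested. In each of the comparisons, the interaction and the 4-group test 0 of the 40 passed by edgeR, and 1 to 5 had an unadjusted p under 0.05, beside the shares of all genes given above for the members. DESeq2 passed 1 of the 40, Tgfb2, between TM+NAC and Control, and 0 in the other tests. The median log2 fold of the 40 lay between -0.03 and 0.06 in every comparison.

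Tgfb2, which encodes a TGF-beta ligand, came nearest to passing. Its levels were 20.1, 15.3, 15.9, 13.0 and 17.5 CPM in Control and 12.3, 10.7, 10.4, 12.6 and 12.5 CPM in TM+NAC, and the groups did not overlap, as for 2.2% of tested genes. The fold was -0.49 ± 0.11 (unadjusted p = 0.000247, adjusted p = 0.0620 by edgeR). Ccn2, a matrix-associated gene and classic TGF-beta target, stood at 18.0, 20.6, 18.5, 10.2 and 19.5 CPM in Control and 25.3, 24.8, 35.8, 21.6 and 27.6 CPM in TM+NAC, again without overlap. Its fold was 0.64 ± 0.20 (unadjusted p = 0.00386, adjusted p = 0.307 by edgeR). Gdf11, which encodes the ligand closest to myostatin, stood at 15.5 ± 2.34 CPM in NAC and 11.2 ± 3.28 CPM in Control, a fold of 0.47 ± 0.16 with 5 of 5 libraries above the control mean (unadjusted p = 0.0102, adjusted p = 0.587 by edgeR). Skil, which encodes the SMAD co-repressor SnoN, had the smallest p of the 40 in the interaction, -0.48 ± 0.17 (unadjusted p = 0.0118, adjusted p = 0.597 by edgeR). Others among the 3 smallest p of a comparison were Nog, which encodes the BMP antagonist noggin (-0.47 ± 0.18 for TM over Control, and an interaction of 0.59 ± 0.25), and Tgfbr1, a TGF-beta type I receptor gene (-0.41 ± 0.15 for TM+NAC over NAC). The ubiquitin ligase gene Smurf2 (0.24 ± 0.10 for NAC over Control), Id1 (-0.37 ± 0.22 for TM+NAC over Control and -0.41 ± 0.22 over TM) and the receptor gene Tgfbr2 (0.25 ± 0.14 for TM+NAC over TM) complete that set, and none of these 5 passed.

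Among the genes of the list that passed between TM+NAC and Control without the filter were Tgfb2 and the low genes Ltbp2 and Grem1, which are named here because they passed, after their values were seen. Ltbp2, which encodes a latent TGF-beta binding protein family member, held 2.54 to 4.34 CPM in the TM+NAC libraries and no more than 1.22 CPM in any other, a fold of 2.66 ± 0.39 over Control (adjusted p = 0.000749 by edgeR). Its fold was 2.04 ± 0.37 over TM (adjusted p = 0.0358 by edgeR) and 2.87 ± 0.39 over NAC (adjusted p = 0.00161 by edgeR). Grem1, which encodes a secreted BMP antagonist, had 95 to 323 counts in each TM+NAC library and 0 to 9 in each of the others.

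Both Ltbp2 and Grem1 were higher in every TM+NAC library than in any library of the other groups. The TM+NAC 5 library was the highest for each of them and for the inflamed stroma sum (50.4 CPM, against 16.4 to 18.8 in the other TM+NAC libraries). The part of other cell types in these differences was not tested. Of the 10 members, 0 had separate ranges in the 5 tested comparisons of a pair of groups. The shares that follow cover the genes past the filter, which leave out 4 of these members, and none was computed without the filter. The share of tested genes with separate ranges was 0.443% for TM against Control, 0.598% for NAC against Control, 2.2% for TM+NAC against Control, 1.8% for TM+NAC against TM and 2.63% for TM+NAC against NAC.

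Genes whose levels followed a member most closely were sought over the 20 libraries, on log2 CPM centred on each group's mean, among 8783 genes. The nearest to Mstn were Eif3e (r = 0.88), Srpr (0.87) and Hsp90ab1 (0.87). Without Control 4 and NAC 4, the farthest libraries, these were 0.59, 0.68 and 0.70. The nearest to Fstl1 were the matrix genes Loxl2 (0.94), Nid1 (0.93) and Fbn1 (0.93), and these stayed at 0.82, 0.87 and 0.83 without Control 4 and TM 1. The nearest to Fst were Clic1 (0.77), Samd9l (0.77) and Marveld1 (0.75), at 0.60, 0.77 and 0.63 without TM+NAC 2 and Control 2. The nearest to Smad7 were Sox18 (0.81), H3f3a (0.79) and Pip4p1 (0.78), at 0.68, 0.73 and 0.63 without NAC 5 and TM 5. These values describe these libraries, which share depth and scaling, and carry no test.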

How the data were processed

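The authors deposited 1 table of 31618 genes with, per the file headers, a count column and an FPKM column for each of 20 libraries; all 40 columns were used. The deposited count columns hold unscaled whole numbers. The FPKM columns were scaled by the authors for transcript length and depth. Per the labels' protocols, RNA was extracted with Trizol, poly(A)-selected and made into libraries with a dUTP kit that marks strand. Per the submitters' processing notes, cutadapt 1.9, FastQC, HISAT2 2.2.1, StringTie and GRCm38 were used; the sources used here do not give the annotation release, the counting method or its use of strand. All 10 members had the same positions in GENCODE M21.

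Groups were read from the labels. Genes whose FPKM averaged 1 or more were fitted with edgeR 4.0.16 (R 4.3.3; TMM scaling; quasi-likelihood F test, two-sided) in 1 model of 4 groups, and members under the filter were read from the same model of all genes. Each SE was taken as fold (log2) over the root of F. Alternatives were DESeq2 1.42.0, limma 3.58.1 on log2(FPKM + 1) or log2(FPKM + 0.1), RLE scaling, other filters, only the groups compared, a replicate block and leaving out each library. The test was tested on simulated data. No pair of libraries within a group was alike to sampling noise (lowest chi-square per degree of freedom 22.9). All members are named; other pathway genes are named when they pass, when they have 1 of the 3 smallest p of a comparison, or to describe levels. Likeness of Mstn, Fst, Fstl1 and Smad7 was computed on log2(CPM + 0.5) against the log2 CPM (edgeR default prior count) of the 8783 genes past the filter that are left without predicted genes, clone names and the like. The members and lists were chosen with earlier results of these data known. The separate result of 1 listed pathway gene is not reported here; it stays in every fit and count.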

Additional observations from a re-analysis of the deposited data

Results flagged for a closer look

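Of 40 sets of 5 libraries (10 members in 4 groups), 4 held a library whose gap to its nearest neighbour, divided by the group's range, was above Dixon's critical value of 0.71; chance gives about 1 in 20. Mstn in Control 4 was 121 CPM, with the next library at 74.7 CPM (gap over range 0.733). Mstn in NAC 4 was 142 CPM, with the next at 91.2 CPM (0.829). Acvr2a in NAC 4 was 66.7 CPM, with the next at 40.9 CPM (0.860). Fstl3 in NAC 4 was 0.538 CPM, the lowest of its group, with the next at 1.17 CPM (0.731). Of the 4, 3 were thus in NAC 4, the library with the largest total and mitochondrial share; the part of these in the values was not tested.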

How the results depend on the processing

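Over 60 member folds and 1676 alternative values, 0 passed; the lowest adjusted p was 0.127 for the 6 filtered members and 0.210 for the 4 low ones, and the 4-group test gave 0.312 at lowest over 271 alternatives, 0 passing. Signs changed 91 times in 21 results, none with a main fold above 0.168 in size. Most of these folds lay within 1 SE of 0 under both settings; in 4 results the fold under the other setting changed sign and exceeded 1 SE, from main folds within 1 SE of 0. With Control 4 and NAC 4 both left out, a setting chosen after seeing the data, Mstn was 0.23 for TM and 0.15 for TM+NAC against Control, and leaving out single libraries gave -0.0802 to 0.23 and -0.16 to 0.15. Without single libraries Smad7 ran from -0.22 to 0.13 for NAC against Control and from -0.14 to 0.22 for TM+NAC against NAC.

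Counts of all passing genes moved more. DESeq2 gave 19, 38, 77, 19 and 8 genes for TM, NAC and TM+NAC against Control, TM+NAC against TM and TM+NAC against NAC, 9 for the interaction and 62 for the 4-group test, where the main counts were 0, 21, 34, 3, 3, 1 and 19. In the same order, no filter gave 197, 439, 566, 21, 13, 7 and 296, a mean FPKM of at least 5 gave 2, 0, 0, 0, 0, 0 and 0, and leaving out single libraries gave 0 to 22, 4 to 41, 21 to 57, 3 to 6, 3 to 4, 0 to 7 and 8 to 43. Limma with a pseudocount of 1 gave 1, 2, 6, 6 and 3 for TM and NAC against Control, TM+NAC against TM, TM+NAC against NAC and the interaction, and with 0.1 it gave 1, 3, 6 and 5 for the first 4 of these. Fitting only the groups compared gave 2, 0, 57 and 9 for TM, NAC and TM+NAC against Control and TM+NAC against TM. Leaving out Control 4 and NAC 4 gave 15 and 42 for TM and NAC against Control, 10 for TM+NAC against TM, 10 for the interaction and 46 for the 4-group test. The cause was not tested. Of the other pathway genes, Tgfb2 passed between TM+NAC and Control with DESeq2, without a filter and with the 2 libraries left out, and Ccn2 with the replicate block.

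The labels do not say whether same-numbered libraries are paired. Of 30 pairs of same-numbered libraries, 11 had a correlation of deviations over 0.1 (range -0.27 to 0.38, the highest for Control 4 with NAC 4). By the same measure 5 of 20 libraries correlated best with their own number. No chance level was computed for these counts, so they cannot decide whether the numbers pair the samples. The replicate block gave 10 genes for NAC against Control, 0 for the interaction and 12 for the 4-group test, and passed no member. Depth limits Fst and Fstl3 most, with at least 73 and 34 counts a library.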
